A study of Mus musculus with 6 samples.

Results

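Plac1, Adam12 and Npl are 3 genes that stood at least 8-fold above wild-type (WT) mouse embryos in Flk1-positive cells and close to the WT level in embryos lacking Flk1. They were chosen by these measured differences, as all probe sets that the platform annotation gives to these symbols: 1417553_at for Plac1, 1421171_at and 1421172_at for Adam12, and 1424265_at for Npl, 4 of the 45101 probe sets on the array. Both comparisons with WT chose them, so their differences are given as a description, without a test.

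Flk1, encoded by Kdr, is the main signalling receptor for VEGF on endothelial cells and on the mesodermal precursors of vessels and blood, and embryos without it form neither organised vessels nor yolk sac blood islands. Plac1 is an X-linked gene named for its expression in placenta, where trophoblast makes it, and its protein carries a domain related to that of the zona pellucida proteins of the egg coat. Adam12 (meltrin alpha) encodes a membrane-anchored metalloprotease and disintegrin known from mesenchyme, muscle and placenta, which sheds growth factors and cleaves IGF-binding proteins. Npl encodes N-acetylneuraminate pyruvate lyase, the enzyme that splits free sialic acid into an acylmannosamine and pyruvate. The 3 genes belong to no common pathway.

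All RNA came from the ICR strain, with embryos aged 8.5 dpc that had formed 3 to 4 somites, which the labels place ahead of the onset of blood flow. The 3 groups of 2 Affymetrix arrays each were cells labelled Flk1 positive, embryos with a Flk1 knockout (Flk1 KO) and WT embryos. The design text names Flk1+/GFP embryos beside the WT and Flk1 KO ones and the embryo proper as the dissected tissue. It does not tie the Flk1-positive cells to that genotype, so a difference in genotype between the cells and the WT embryos cannot be told apart from the group. How the cells were selected, which Flk1 allele was used and how many embryos were pooled are not given in the sources used here. Whether the paired arrays of a group stem from separate pools is not stated, so p-values and errors reflect nothing beyond how far these arrays differ, possibly for technical reasons, and the number of arrays limits the precision.

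Values are the deposited linear signal in arbitrary units. Differences were taken after log2(signal + 21.61), which shrinks the change of dim genes, and are followed by the standard error (SE) from a limma fit to all 6 arrays, 2 per group. The background level was a signal of 57.8, taken from olfactory and vomeronasal receptor probe sets, and 54.2% to 57.7% of the probe sets of an array lay above it. In comparisons of whole embryos with Flk1-positive cells, or of KO with WT embryos, fewer cells of a type and less RNA per cell cannot be told apart.

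The labels were checked on Kdr and on endothelial genes. Kdr read 3309 and 3328 for the Flk1-positive pair of arrays, 543.9 and 545.5 for the WT pair and 29.5 and 63.8 for the Flk1 KO pair. A list of 27 endothelial genes, such as the junction gene Cdh5 and the receptor gene Tek, was above background in Flk1-positive cells for all 27. RNA control probe sets differed between the groups. For the Tfrc control, the 3′ probe set exceeded the 5′ one by 1.26 and 1.35 (log2) in Flk1-positive cells and by 0.94 to 1.05 on the other 4 arrays. For the Actb control the excess was 0.26 and 0.29 against 0.47 to 0.58, the opposite order, and the part of these differences in the values below was not tested.

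Promoter windows were available for Plac1 and Npl. They are shown because both genes stood far higher in Flk1-positive cells than in either kind of embryo, and the capitals mark the letters GGAA (the core of sites for ETS factors, which act in endothelium and blood) and GATA (the core of sites for GATA factors), on either strand. Each window runs from 250 bases before to 50 after a RefSeq start, reads 5′ to 3′ along the gene and comes from the build GRCm38.p6. The Plac1 windows are chrX:53240061-53240360 and chrX:53114356-53114655, both on the minus strand, with starts 125705 bases apart. The Npl window is chr1:153549665-153549964, on the minus strand.
Plac1 promoter 1: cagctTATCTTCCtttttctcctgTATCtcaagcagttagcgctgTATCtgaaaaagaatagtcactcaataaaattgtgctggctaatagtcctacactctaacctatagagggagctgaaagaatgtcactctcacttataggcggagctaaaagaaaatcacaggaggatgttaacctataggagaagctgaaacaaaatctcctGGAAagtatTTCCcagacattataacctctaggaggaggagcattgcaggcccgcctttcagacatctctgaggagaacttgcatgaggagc
Plac1 promoter 2: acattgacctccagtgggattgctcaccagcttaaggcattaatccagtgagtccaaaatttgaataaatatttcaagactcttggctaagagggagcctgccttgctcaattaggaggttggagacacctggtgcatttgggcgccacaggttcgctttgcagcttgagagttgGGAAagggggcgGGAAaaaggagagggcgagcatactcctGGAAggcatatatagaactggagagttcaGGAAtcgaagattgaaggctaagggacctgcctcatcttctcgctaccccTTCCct
Npl promoter 1: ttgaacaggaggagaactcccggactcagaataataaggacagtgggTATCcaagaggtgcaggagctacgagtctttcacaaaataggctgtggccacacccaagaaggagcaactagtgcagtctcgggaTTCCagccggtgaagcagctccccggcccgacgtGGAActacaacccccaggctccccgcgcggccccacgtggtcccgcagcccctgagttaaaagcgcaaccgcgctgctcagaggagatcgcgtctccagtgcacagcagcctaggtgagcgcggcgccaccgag

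The letters GGAA occurred 3 times in the first Plac1 window, 5 times in the second and 2 times in that of Npl, against a mean of 3.52 over the 32851 windows of the same length in the table, of which 96.0% held at least 1 match. GATA occurred 3 times in the first Plac1 window, did not occur in the second and occurred 1 time in that of Npl, and 57.9% of all windows held it. The E-box CANNTG was not in the first Plac1 window, occurred 2 times in the second and 1 time in that of Npl, and was in 72.3% of all windows. The letters GGGCGG, a GC box, occurred 1 time in the second Plac1 window, where the match overlaps a GGAA, and were in 35.7% of all windows. No window of these genes held TGANTCA or TATAAA, which 7.81% and 13.6% of all windows hold. Both strands were searched for each motif. The G and C content was 42.7% and 49.7% in the Plac1 windows and 61.0% in that of Npl, beside a median of 52.7% over all windows. These matches are a description of the letters, and no binding was measured here.

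Plac1 was bright in Flk1-positive cells and at a like level in both kinds of embryo. Its signals were 4570 and 4502 for the Flk1-positive pair of arrays, 380.0 and 319.6 for the WT pair and 261.8 and 411.4 for the Flk1 KO pair. The cells lay far above all embryos, and the Flk1 KO arrays enclosed the WT arrays. The difference was 3.62 ± 0.23 between Flk1-positive cells and WT and -0.08 ± 0.23 between Flk1 KO and WT. The Flk1 KO arrays were the widest pair: the difference from WT was 0.23 without Flk1 KO replicate 1 and -0.39 without replicate 2. Plac1 lies on the X chromosome, and Xist, made from the inactive X of female cells, read 1739 and 1993 for the Flk1-positive pair of arrays, 1423 and 986.5 for the WT pair and 2266 and 1173 for the Flk1 KO pair. The part of the mix of sexes in the Plac1 values was not tested.

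Adam12 was measured by a pair of probe sets, both far higher in Flk1-positive cells than in the embryos, with Flk1 KO means on opposite sides of WT. The brighter, 1421172_at, read 2420 and 2208 for the Flk1-positive pair of arrays, 193.1 and 185.6 for the WT pair and 209.7 and 188.7 for the Flk1 KO pair. WT and Flk1 KO arrays overlapped, with differences of 3.47 ± 0.13 between Flk1-positive cells and WT and 0.06 ± 0.13 between Flk1 KO and WT. The dimmer, 1421171_at, read 1455 and 1462 for the Flk1-positive pair of arrays, 91.8 and 115.1 for the WT pair and 91.5 and 82.4 for the Flk1 KO pair. Here the higher Flk1 KO array was still under the lower WT array, by a margin smaller than the gap between the WT arrays, and the difference was -0.20 ± 0.15. Its rise in Flk1-positive cells was 3.57 ± 0.15. The brighter probe set exceeded the dimmer on all 6 arrays, by 0.59 to 1.03 on the log2 scale.

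Npl was the gene of the 3 nearest the 8-fold limit. It read 5249 and 5534 for the Flk1-positive pair of arrays, 622.2 and 629.8 for the WT pair and 613.2 and 769.9 for the Flk1 KO pair. The WT arrays lay between the Flk1 KO arrays. The differences were 3.06 ± 0.15 between Flk1-positive cells and WT and 0.13 ± 0.15 between Flk1 KO and WT. Brightness is not compared between genes as an RNA level, since probe sets bind with different strength.

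**Figure D1:**
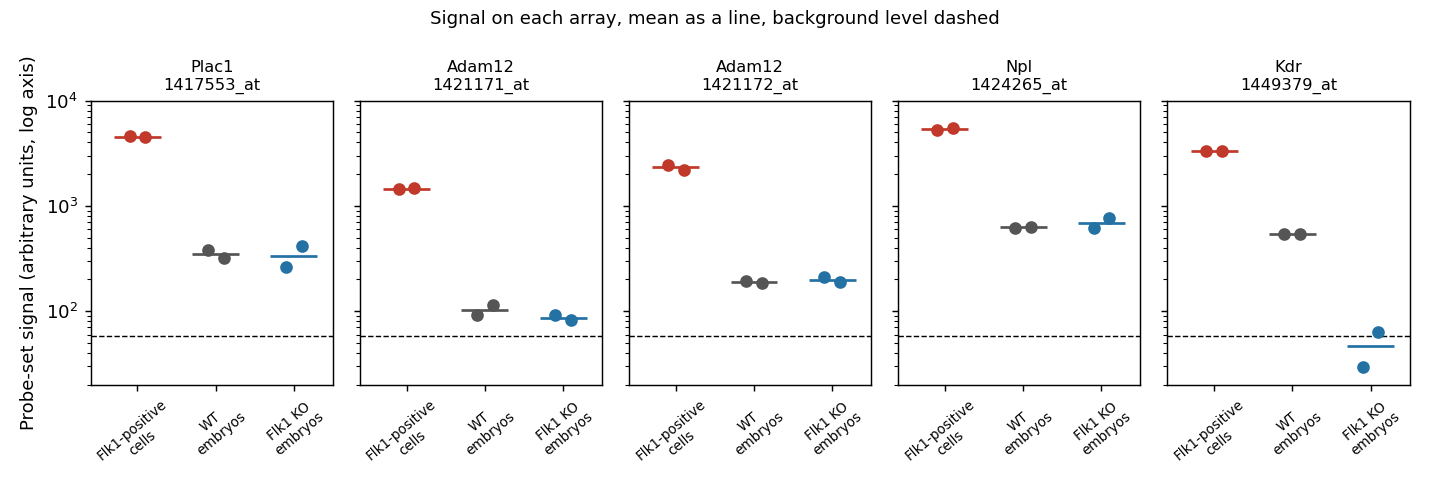
Signal (arbitrary units, log axis) of the 4 probe sets of Plac1, Adam12 and Npl and of Kdr on each of the 6 arrays; points are arrays, lines are group means of 2 arrays and the dashed line is the background level of 57.8. The 4 probe sets stay above background on all 6 arrays, with WT and Flk1 KO at like levels, while Kdr reaches background in Flk1 KO.

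All 4 probe sets were above background on all 6 arrays, as were 54.2% to 57.7% of the probe sets of an array. How much of the embryo signal is specific to these genes was not tested. Among all probe sets, Plac1 stood at percentile 96.2 in Flk1-positive cells, 70.8 in WT and 70.0 in Flk1 KO embryos, and Npl at 96.9, 78.5 and 79.5. The Adam12 probe sets stood lower in the embryos. In the same order of groups, 1421171_at was at 88.5, 53.7 and 52.4, and 1421172_at at 92.4, 62.7 and 63.7. The WT signal was 7.71% of that in Flk1-positive cells for Plac1, 7.09% and 8.18% for the Adam12 probe sets and 11.6% for Npl. The Flk1 KO signal was 7.42% for Plac1, 5.96% and 8.61% for Adam12 and 12.8% for Npl. For the 21 endothelial genes that were at least 8-fold higher in Flk1-positive cells, the WT share ran from 1.70% to 10.7% with a median of 6.58%, and the Flk1 KO share from 0.118% to 4.69% with a median of 1.41%. Of the full list of 27, 26 were above background in WT and 13 in Flk1 KO embryos, so many low Flk1 KO shares are floor values. The lowest WT share (Clec14a, mean 54.3) and the lowest Flk1 KO share (Tie1, mean 2.81) rest on levels not above background. Every member had a higher Flk1 KO share than each of these endothelial genes, which the choice of the members fixes in part.

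Genes that combined a rise of at least 8-fold with a near-WT level in Flk1 KO were a minority of the genes that rose so far. By the brightest probe set of each gene, 120 of 14961 genes tested exceeded WT embryos at least 8-fold in Flk1-positive cells (0.802%). Of these, 82 were more than 0.5 (log2) lower in Flk1 KO than in WT, 35 were within 0.5 and 3 were more than 0.5 higher, with a median of -0.90. Over all genes tested, 91.7% lay within 0.5. The 2 comparisons share the WT arrays, so a WT array that reads low for a gene raises both differences. Plac1 was number 12, Adam12 number 16 and Npl number 30 of the 35 by the size of the rise.

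Of the 35 genes, 19 were above background in WT embryos, and for the rest a near-WT value in Flk1 KO compares levels that were not above background. Among the 35 were the immediate early gene Fos, with 4.86 ± 0.21 in Flk1-positive cells and 0.05 ± 0.21 in Flk1 KO against WT, and the flow-responsive factor Klf2, with 3.64 ± 0.18 and -0.13 ± 0.18. The laminin chain gene Lama4 had 3.34 ± 0.16 and -0.09 ± 0.16. The platelet factor gene Pf4 had 3.11 ± 0.46 and -0.34 ± 0.46. Fos is also induced when tissue is dissociated, and whether handling of the cells had a part in these values was not tested. By list, 3 of the 35 were megakaryocyte and platelet genes (Nfe2, Pf4 and Plek, of 13 tested). Primitive erythroid genes also made up 3 (Alas2, Klf1 and Nfe2, of 10 tested). The share over all genes tested was 35 of 14961. Of these blood genes Pf4 alone was above background in WT and Flk1 KO embryos. For the others a near-WT value compares levels that were not above background. The other 10 lists, trophoblast, macrophage, mesenchymal and allantois among them, held none. None of the 27 endothelial list genes was among the 35, and all 21 of that list with an 8-fold rise were more than 0.5 lower in Flk1 KO.

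The 8-fold limit ran through a continuous range. Just inside, and within 0.5 of WT in Flk1 KO, were Sema3g (3.01 ± 0.15), Tll1 (3.03 ± 0.27) and Tspan8 (3.04 ± 0.21). Just outside were Arhgap25 (2.997 ± 0.19), Prkcq (2.99 ± 0.14) and Timp3 (2.95 ± 0.21). Npl lies closer to these genes than to Plac1 in the size of its rise.

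**Figure D2:**
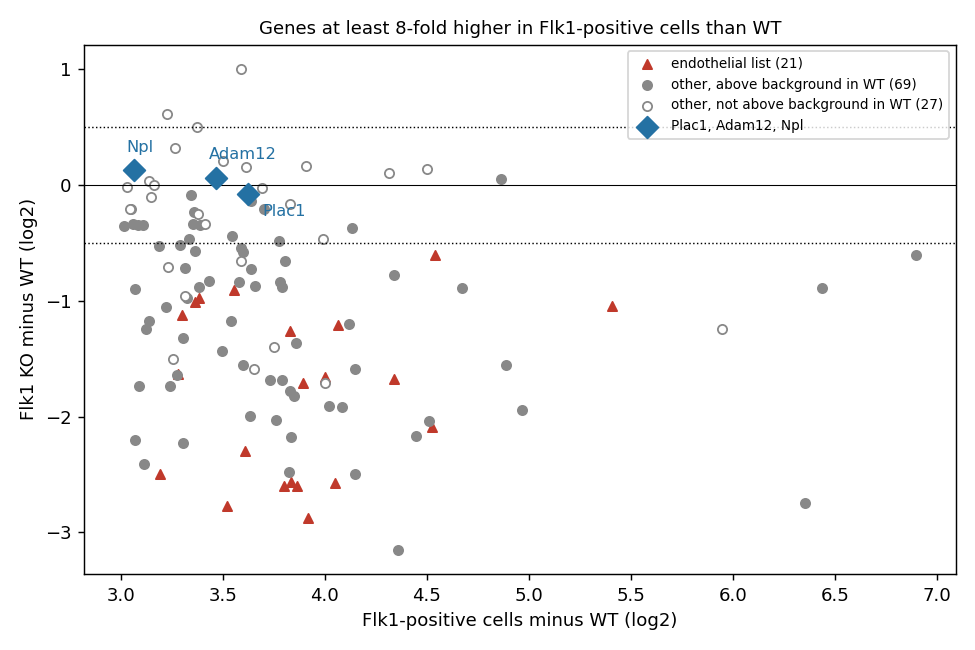
Flk1 KO minus WT (vertical, log2) against Flk1-positive cells minus WT (horizontal, log2) for the 120 genes at least 8-fold higher in Flk1-positive cells; diamonds are Plac1, Adam12 and Npl, triangles endothelial list genes, filled circles other genes above background in WT, open circles other genes not above it, and dotted lines mark 0.5 on each side of 0. The diamonds lie at -0.08, 0.06 and 0.13, and all 21 triangles lie below -0.5; the axes share the WT arrays.

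A comparison at like WT brightness, chosen after the values were seen, set dim genes aside. In all, 44 of the 120 genes had a WT signal at or above that of Adam12. Of these, 38 were more than 0.5 lower in Flk1 KO and 6 within 0.5, with a median of -1.64 and a range from -3.15 to 0.13. The Flk1 KO pair was entirely under the WT pair for 41 of the 44, and the 3 exceptions were Plac1, Adam12 and Npl. Adam12, Plac1 and Npl, in this order, were also the 3 genes nearest to 0. The rule chose them for this position, so it is no support for it.

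The other 3 genes within 0.5 lay below WT in Flk1 KO on both arrays. They were Gng11, a G protein gamma subunit gene (-0.44 ± 0.15), Plk2, a polo-like kinase gene (-0.35 ± 0.16), and Spns2, the exporter of sphingosine 1-phosphate (-0.47 ± 0.20). The tight junction gene Cldn5 shows the contrast with Plac1 at almost the same WT signal. The rule for the members fixes this contrast in part, and Cldn5 was chosen after the values were seen. Cldn5 had a mean signal of 5155 in the Flk1-positive cells against 350.7 in WT embryos, beside 4536 and 349.8 for Plac1. In Flk1 KO embryos its mean was 39.8, not above background, beside 336.6 for Plac1. Likewise the vesicle diaphragm gene Plvap had 597.5 in WT and 83.7 in Flk1 KO, beside 626.0 and 691.5 for Npl. The Plvap difference was -2.57 ± 0.19 (limma adjusted p = 0.0429). Cldn5 and Plvap fell further than the median of -1.64 for the 44 genes above. Not all endothelial genes of like WT signal fell so far. Ecscr had 338.8 in WT and 144.6 in Flk1 KO (-1.12 ± 0.15), and Egfl7 had 654.2 and 318.2 (-1.01 ± 0.20), neither past the test. The Plvap call was lost under 12 settings, among them each that left out 1 of the 6 arrays.

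Likeness of pattern was measured as the Euclidean distance over the 6 arrays between log2(signal + 21.61) values with each gene's WT mean subtracted. The subtraction removes most of the level. For genes dim in the embryos level still counts, since the pseudocount shrinks their rise and can bring them near a member. The distance between Plac1 and Adam12 was 0.63, that between Adam12 and Npl 0.68 and that between Plac1 and Npl 0.89, while the median distance of all genes tested was 5.29 from Plac1, 5.06 from Adam12 and 4.50 from Npl. Adam12 was the fourth nearest gene to Plac1, which in turn was number 9 for Adam12 and number 48 for Npl. All these distances follow in part from the rule, which fixed both differences.

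The 5 genes nearest to Plac1 were Lcp2, an adaptor of blood cell signalling (distance 0.52), the tetraspanin-like gene Tm4sf1 (0.54), Gng11 (0.61), Adam12 and Klf2 (0.65). Lcp2 and Tm4sf1 were not above background in WT or Flk1 KO embryos. Nearest to Adam12 were Lama4 (0.44), Hcls1 (0.50), Alox5ap (0.53), Klf2 (0.54) and Arhgdib (0.55). Hcls1, Alox5ap and Arhgdib are best known from blood cells, and Hcls1 was not above background in either kind of embryo. Lama4 read 1901 and 2157 for the Flk1-positive pair of arrays, 161.7 and 200.4 for the WT pair and 164.7 and 171.8 for the Flk1 KO pair, so its Flk1 KO arrays lay between its WT arrays.

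Nearest to Npl were Cyth4 (0.38), the erythroid haem synthesis gene Alas2 (0.41), the galectin gene Lgals1 (0.41), the noncoding RNA gene Redrum (0.44) and Cited4 (0.44). Alas2 had mean signals of 241.7 in the cells and 5.76 in WT embryos, and its rise after adding the pseudocount was 3.27. Lgals1 alone of these 5 was above background in WT and Flk1 KO embryos. Its signals were 19843 and 20422 for the Flk1-positive pair of arrays, 2665 and 2591 for the WT pair and 2736 and 2521 for the Flk1 KO pair, and its rise was 2.93.

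**Figure D3:**
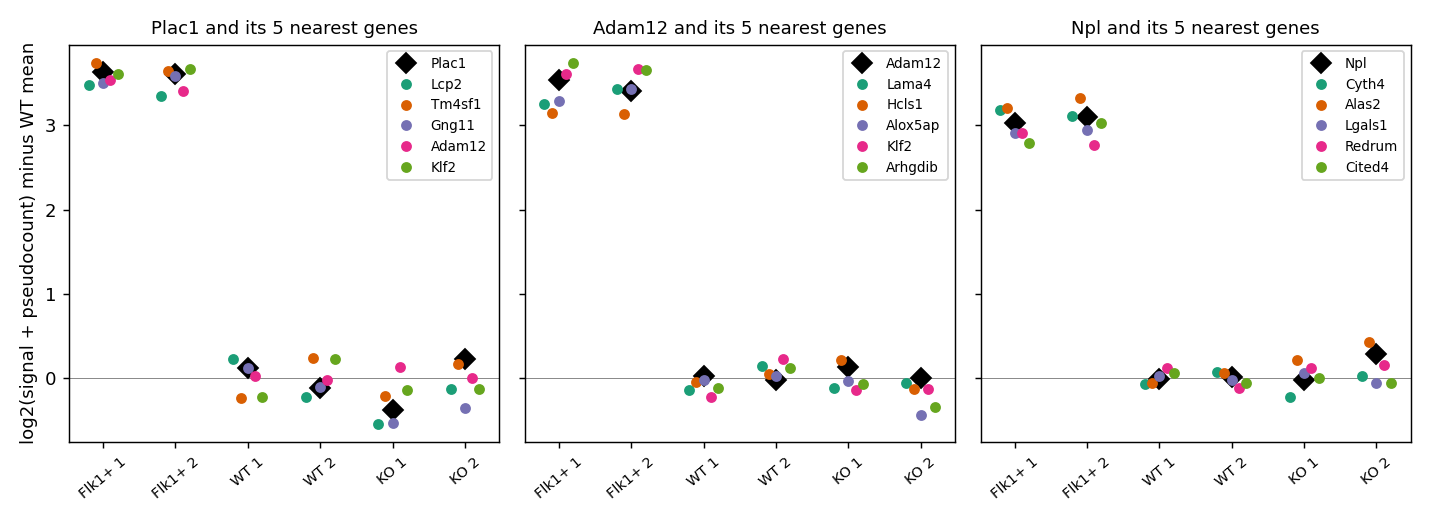
Log2(signal + pseudocount) minus the WT mean (vertical) on each of the 6 arrays (horizontal, Flk1+ for Flk1-positive cells and KO for Flk1 KO) for Plac1, Adam12 and Npl, as diamonds, and the 5 genes nearest to each, as circles. Points of all genes stand near 3 or above in Flk1-positive cells and scatter around 0 in WT and Flk1 KO embryos, with Plac1 lower on 1 Flk1 KO array than on the other.

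The relatives of each member were then described from gene lists. Over all 14961 genes tested, limma called 12.5% higher and 18% lower for Flk1-positive cells against WT, and the median difference was -0.09. Against WT, 0.14% were called lower in Flk1 KO and 0% higher. By probe set the shares were 11.6% higher and 14.4% lower in the cells, and 0.0798% lower and 0% higher in Flk1 KO. Over 11 lists other than the endothelial one, limma called 0 of 155 genes in Flk1 KO against WT. An unadjusted p under 0.05 was reached by 19 of them in the higher and 13 in the lower direction. Among all 33820 probe sets tested, 836 reached it in the higher and 2000 in the lower direction. The count of 0 did not hold under every setting. At most 2 yolk sac endoderm genes, 1 allantois gene and 1 mesenchymal gene were called higher in Flk1 KO, and at most 1 gene lower in each of the macrophage, megakaryocyte, primitive erythroid and zona pellucida lists. All these maxima were reached with an intensity trend and a robust prior, and the other 4 lists had no call under any setting run.

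Of the ADAM family apart from Adam12, 12 of 24 genes on the array passed the filter on low values, 4 of them higher and 3 lower in Flk1-positive cells. Adam15, a metalloprotease known from endothelium, read 1325 and 1382 for the Flk1-positive pair of arrays, 202.3 and 247.4 for the WT pair and 198.0 and 210.1 for the Flk1 KO pair. It rose by 2.49 ± 0.15 (limma adjusted p = 0.000521), and in Flk1 KO its difference from WT was -0.12 ± 0.15, with overlapping arrays. Adam19, a relative known from heart and neural crest, rose by 1.64 ± 0.14 (limma adjusted p = 0.00118) and differed by -0.07 ± 0.14 in Flk1 KO. The sheddase gene Adam10 rose by 0.87 ± 0.14 (limma adjusted p = 0.00892), but not when Flk1-positive replicate 2 or either WT array was left out. Adam11 was at least 2.27-fold lower, and Adam22 (-0.84 ± 0.21) and Adam23 (-0.80 ± 0.21) were lower too. The Adam22 call was lost without any 1 Flk1-positive or WT array, and the Adam23 call without any 1 array other than Flk1-positive replicate 2. Both calls were also lost with median centring, without a filter and with quantile normalization, each of which left 1 lower gene in the family, and the Adam23 call also with the 10th percentile pseudocount and the compared groups alone. Without either WT array or Flk1-positive replicate 2 the count of higher genes was 2. The count of lower genes was 1 without either WT array or Flk1-positive replicate 1.

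Substrates, partners and inhibitors of ADAM12 moved both ways: of 14 tested, 6 were higher and 5 lower in Flk1-positive cells. The protease inhibitor gene Timp3 read 1595 and 1366 for the Flk1-positive pair of arrays, 139.6 and 210.7 for the WT pair and 243.1 and 258.5 for the Flk1 KO pair, a rise of 2.95 ± 0.21 (limma adjusted p = 0.000749). Both Flk1 KO arrays of Timp3 lay above both WT arrays, with a difference of 0.49 ± 0.21 that did not pass the test. The substrate gene Igfbp3 rose by 2.82 ± 0.20 (limma adjusted p = 0.000705) and differed by -0.49 ± 0.20 in Flk1 KO, and the integrin gene Itga9 rose by 1.13 ± 0.14. Igfbp5, the other IGF-binding protein substrate, fell by 1.91 on the log2 scale, from 2744 and 2771 in WT embryos to 763.6 and 677.3 in Flk1-positive cells (limma adjusted p = 0.000758). The Notch ligand gene Dll1 was lower (-2.13 ± 0.16), and Actn2, which encodes a muscle alpha-actinin, was at least 3.31-fold lower. Without Flk1-positive replicate 1 or WT replicate 2, 4 genes were higher.

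In the sialic acid pathway 6 of 13 genes tested were higher and 1 lower in Flk1-positive cells, with a median of 0.68. Gne, which encodes the enzyme that starts sialic acid synthesis, read 742.6 and 770.4 for the Flk1-positive pair of arrays, 285.0 and 247.3 for the WT pair and 271.0 and 215.3 for the Flk1 KO pair. It rose by 1.44 ± 0.16 (limma adjusted p = 0.00293), smaller than the 3.06 of Npl. The lysosomal sialic acid exporter Slc17a5 rose by 0.87 ± 0.18 (limma adjusted p = 0.0212). The sialidase gene Neu3 was called higher, but its levels were not above background in any group. The Golgi transporter gene Slc35a1 was lower (-0.57 ± 0.12, limma adjusted p = 0.0235). Leaving out 1 array reduced these calls: 1 gene was higher without Flk1-positive replicate 1, 4 without replicate 2, and 2 without either WT array, and none of these 4 fits called Slc35a1.

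Of a list of zona pellucida domain genes, the group Plac1 is related to, 7 of 13 on the array were tested, 3 of them higher and 1 lower. The list also holds Zp3r, named as a receptor for Zp3, which was not among those tested. Oit3 was at least 48.5-fold higher, and the coreceptors for TGF-beta family ligands Eng (3.83 ± 0.21) and Tgfbr3 (2.44 ± 0.20) were higher. Tgfbr3 read 4222 and 4569 for the Flk1-positive pair of arrays, 665.9 and 941.4 for the WT pair and 841.8 and 756.8 for the Flk1 KO pair, so its Flk1 KO arrays lay between its WT arrays (0.01 ± 0.20), while Eng differed by -1.26 ± 0.21 in Flk1 KO. The egg coat genes themselves, Zp1, Zp2 and Zp3, were not above background in any group. Gp2, at least 1.02-fold lower, lost its call when WT replicate 2 or either Flk1-positive array was left out.

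Markers of trophoblast, the tissue Plac1 is best known from, were called lower or not called in Flk1-positive cells. Over all genes tested 12.5% were called higher and 18% lower, and the counts for so short a list were near these shares. Of 13 tested, limma called 0 higher and 3 lower, with 1 higher at an unadjusted p under 0.05, and 1 was called higher without either Flk1 KO array and under 5 other settings. Tfap2c was at least 7.00-fold lower and Cited1 was lower (-3.14 ± 0.15). Hand1, which is also on the allantois list, was lower (-1.14 ± 0.17), a call lost without WT replicate 1. Of the 26 genes listed, 19 were on the array, and 6 of these were above background in Flk1-positive cells. Among those not above background were Tpbpa, Prl7a2, Ctsq, Psg17 and Elf5, which mark trophoblast lineages. The summed signal of the list was 1751 and 1553 for the Flk1-positive pair of arrays, 5108 and 4400 for the WT pair and 4550 and 5328 for the Flk1 KO pair. Cited1 carried the largest part of it in the embryos, with 2299 and 1941 in WT, and the named markers Tpbpa, Prl7a2, Ctsq, Psg17 and Elf5 were not above background in WT or Flk1 KO embryos either.

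Blood cell markers stood higher in Flk1-positive cells. Of 17 macrophage genes tested, 7 were higher and 0 lower (no gene lower at an unadjusted p under 0.05 either), with a median of 0.59. The mannose receptor gene Mrc1, which embryonic endothelium also expresses, rose by 4.89 ± 0.13, the signalling adaptor Tyrobp was at least 1.73-fold higher and Laptm5 rose by 1.84 ± 0.22. The macrophage genes Aif1, C1qa, C1qb, C1qc, Cd163, Cx3cr1 and Itgam were not above background in Flk1-positive cells, and Csf1r differed by 0.27 ± 0.19. The summed signal was 8520 and 8940 for the Flk1-positive pair of arrays, 2732 and 2878 for the WT pair and 2922 and 2603 for the Flk1 KO pair, of which Mrc1 made up 4639 and 4717 in the cells. The count of higher genes was 5 without Flk1-positive replicate 1 or WT replicate 2, and 1 gene was lower without either Flk1 KO array or with the compared groups alone.

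Of 13 megakaryocyte and platelet genes tested, 10 were higher and 0 lower (none lower at an unadjusted p under 0.05), with a median of 1.72. Plek was at least 18.2-fold and the transcription factor gene Nfe2 at least 7.21-fold higher, and Clec1b rose by 3.79 ± 0.17. The summed signal was 8252 and 8021 for the Flk1-positive pair of arrays, 1108 and 969.9 for the WT pair and 988.8 and 760.0 for the Flk1 KO pair. Primitive erythroid genes were higher for 9 of 10 tested, led by the embryonic globins Hba-x (6.44 ± 0.57), Hbb-bh1 (6.35 ± 0.34) and Hbb-y (4.51 ± 0.70), and 1 was lower, Tfrc (-0.60 ± 0.12), a call lost without either Flk1-positive array or either WT array. Related globins can share signal on these probe sets. Hbb-bh1 differed by -2.75 ± 0.34 and Hbb-y by -2.04 ± 0.70 in Flk1 KO against WT, neither past the test. The part of blood cells in the values of Plac1, Adam12 and Npl was not tested.

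Genes of the allantois and extraembryonic mesoderm were split, with 6 of 20 higher and 5 lower in Flk1-positive cells. Tbx4, a transcription factor gene of allantois and hindlimb, read 1572 and 1757 for the Flk1-positive pair of arrays, 290.2 and 225.6 for the WT pair and 260.9 and 271.7 for the Flk1 KO pair. It rose by 2.60 ± 0.16 (limma adjusted p = 0.000574), and its Flk1 KO arrays lay between its WT arrays (0.05 ± 0.16), so that WT and Flk1 KO overlapped, as they did for Plac1 and Npl. The posterior Hox genes Hoxa10 (1.74 ± 0.21) and Hoxc10 (at least 2.15-fold) were higher, the latter a call lost without any 1 Flk1-positive or WT array and with a replicate block. Cdx2 (-2.19 ± 0.32) and Wnt2 (-1.98 ± 0.15) were lower, and Dcn was at least 1.78-fold lower. The summed signal was 33188 and 36211 for the Flk1-positive pair of arrays, 23268 and 21768 for the WT pair and 27657 and 25542 for the Flk1 KO pair, the growth factor gene Igf2 taking the largest share. Without any 1 Flk1-positive or WT array, 4 genes were higher, and without WT replicate 1, 3 were lower.

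Mesenchymal and mural genes, the class Adam12 is best known from, were mostly lower in Flk1-positive cells where they were called: 2 of 22 tested were higher and 7 lower. The adhesion gene Mcam, which endothelium also expresses, was higher (3.32 ± 0.38), and so was Twist2 (1.02 ± 0.22), whose call was lost when WT replicate 2 or either Flk1-positive array was left out. Meox1 (-3.59 ± 0.16) and the PDGF receptor gene Pdgfra (-2.96 ± 0.25) were lower, and the smooth muscle gene Cnn1 was at least 2.69-fold lower. The summed signal was 8952 and 8167 for the Flk1-positive pair of arrays, 17655 and 17012 for the WT pair and 24754 and 21897 for the Flk1 KO pair. In the cells this sum was opposite in direction to Adam12. Acta2 and Pdgfra carried most of its fall from WT, with means of 5040 and 3384 in WT embryos and 1309 and 422.4 in the cells. The median difference over the 22 genes tested was -0.31.

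Yolk sac endoderm genes were lower for 12 of 17 tested and higher for 1, Sox17, a factor of endoderm and endothelium (1.95 ± 0.40), whose call was lost without any 1 Flk1-positive or WT array. Maob was at least 3.38-fold and Fgb at least 2.05-fold lower, and Apob was lower (-1.77 ± 0.48), a call lost without any 1 Flk1-positive or WT array, with the 10th percentile pseudocount, without a filter and with quantile normalization. The count of lower genes was 7 without WT replicate 2.

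Endothelial genes are given as values beside the 3 members, which were chosen for being near WT in Flk1 KO, so the contrast with them in Flk1 KO follows from that choice. All 27 endothelial genes were higher in Flk1-positive cells, with a median of 3.61, led by Clec14a (at least 40.5-fold), Stab2 (4.54 ± 0.30) and Icam2 (4.53 ± 0.20). The rises of Plac1, Adam12 and Npl were 3.62, 3.47 and 3.06. The rule chose the members by this rise, so its closeness to the endothelial median is no support for a likeness. In Flk1 KO against WT, 11 of 27 were lower, with a median of -1.67, beside 0.14% of all genes called and a median of 0.00 over all genes. The 11 were Cd34, Cldn5, Erg, Esam, Fli1, Flt4, Plvap, Sox7, Sox18, Tal1 and Tie1, with limma adjusted p-values from 0.0201 to 0.046, and 0 of them passed when any 1 of the 6 arrays was left out. The count was also 0 with the 10th percentile pseudocount, the compared groups alone or a replicate block, 5 without a filter and 7 with quantile normalization. It was 16 with the median pseudocount or the median over probe sets, 18 with the stricter filter and 24 with an intensity trend and a robust prior. The roundabout receptor gene Robo4 did not follow the list: its Flk1 KO minus WT difference was 0.11, at mean signals of 64.1 in WT and 70.5 in Flk1 KO embryos, just above background. The summed signal of the list was 113759 and 115200 for the Flk1-positive pair of arrays, 9558 and 8667 for the WT pair and 2527 and 2476 for the Flk1 KO pair.

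**Figure D4:**
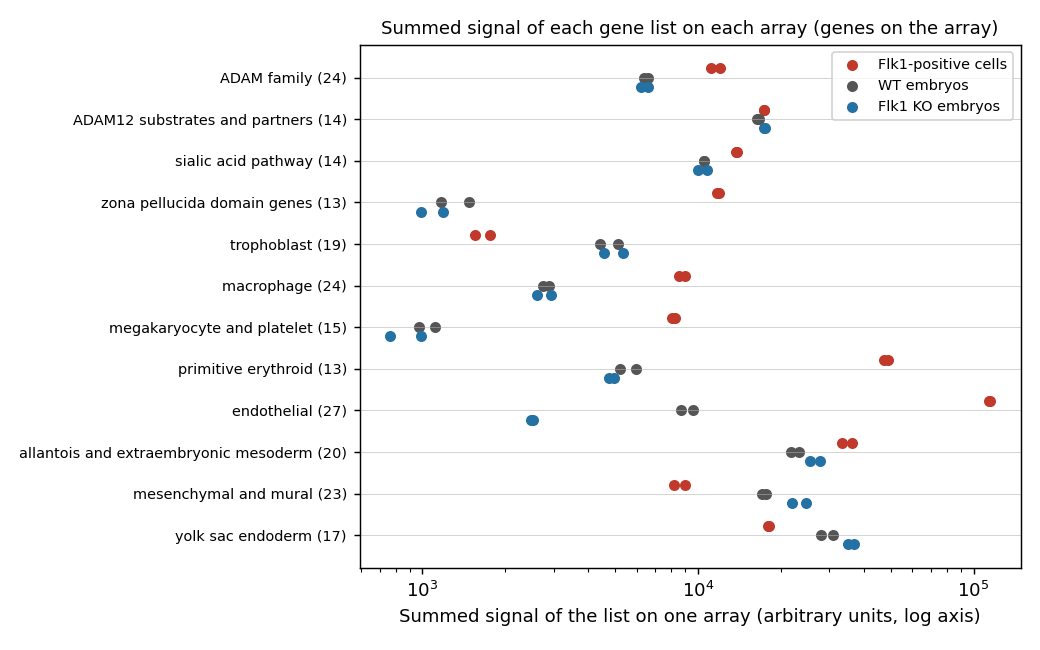
Summed signal (arbitrary units, log axis) of each of 12 gene lists on each of the 6 arrays, with the number of genes on the array in brackets; each point is 1 array. Flk1-positive cells stand right of the embryos for the endothelial, blood, zona pellucida, ADAM family, sialic acid and allantois lists. They stand left of them for the trophoblast, mesenchymal and yolk sac endoderm lists, and overlap them for the ADAM12 substrates and partners. The endothelial list alone has its Flk1 KO points more than 2-fold below its WT points.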

How the data were processed

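The authors deposited 1 linear signal per probe set, scaled to a trimmed mean of 500 on each array (2% left out at each end) with a floor of 1, as the values show. Purification used the RNeasy Micro system and the label was biotin, per the labels' protocols, and the design text names GeneSpring. The sources used here do not name the program that made the signal. Signals were transformed as log2(signal + 21.61), the pseudocount being the 25th percentile of all values. The 64 control probe sets and those with a mean (on this scale) under that percentile were left out, and 33820 probe sets were tested by lmFit and eBayes of limma 3.58.1 (R 4.3.3) with group as the factor over all 6 arrays (two-sided; residual degrees of freedom 3, prior 2.49), Benjamini-Hochberg adjusted over all of them at 0.05. The procedure was tested on simulated data.

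The platform annotation gives 1 gene symbol to 34945 probe sets outside the controls, several to 932 and none to 9211, and names came only from the first. A gene was represented by its brightest probe set. As background served the 77 probe sets of olfactory and vomeronasal receptors: their 95th percentile was taken per array and averaged. Where the dimmer mean is below it, the fold is given as at least the brighter group's mean over background, both as signal plus pseudocount and averaged on the log2 scale. Promoter windows came from RefSeq (GRCm38.p6), and 2 of the 3 members matched. The members and lists were chosen with earlier results of these data known. Named genes were up to 3 higher and 3 lower called genes of each list, the 5 nearest genes of each member, the genes at the 8-fold limit and the genes called in Flk1 KO. Genes named outside this rule, chosen after their values were seen, were Fos, Klf2, Lama4, Pf4, Gng11, Plk2, Spns2, Cldn5, Plvap, Ecscr and Egfl7 beside the members, Robo4, Csf1r, Igf2, Acta2, Zp3r, Xist and the markers listed as not above background. Alternatives were other pseudocounts, filters, scalings and priors, the compared groups alone, a replicate block, the median over probe sets, other fold limits and leaving out each array. Plots used matplotlib 3.10.9 (Python 3.11.15).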

Additional observations from a re-analysis of the deposited data

How the results depend on the processing

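The differences of the 4 member probe sets between Flk1-positive cells and WT ranged from 2.95 to 3.76 over 16 settings, and those between Flk1 KO and WT from -0.39 to 0.29. All 3 genes stayed within the 8-fold and 0.5 limits except Npl with the median pseudocount (2.95). The count of 35 genes with this pattern was 55 with the 10th percentile pseudocount, 22 with the median pseudocount (12 of the 35 among them), 227 with a 4-fold limit and 4 with a 16-fold limit, and 30 to 50 on leaving out 1 array. Probe sets higher in Flk1-positive cells numbered 3923 (2127 to 4045 on leaving out 1 array) and lower ones 4876 (2220 to 4882). In Flk1 KO against WT, 27 probe sets were lower and 0 higher (an unadjusted p under 0.05 gave 836 and 2000 in the higher and lower direction), and 0 to 0 in either direction on leaving out 1 array. The lower count was 0 with the 10th percentile pseudocount and with the compared groups alone, 87 with the stricter filter, 121 with an intensity trend and robust prior, 14 with median centring, 68 with the median pseudocount, 7 without a filter and 12 with quantile normalization. The higher count was 7, 13 and 6 with the stricter filter, the trend and the median pseudocount. The cause was not tested. Same-numbered arrays did not deviate together (correlations from 0.0079 to 0.0286), so no strong effect shared by number was seen. With 2 arrays per group, a weak shared effect cannot be told from none. A replicate block left 0 lower calls in Flk1 KO and 3482 higher and 4257 lower in Flk1-positive cells.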
